A study of Mus musculus with 8 samples.

Results

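The cells described here are the solvent-treated control cells of a study of mouse cells labelled female germline stem cells, and the members are all genes of the expression table, ranked by their mean in the 3 DMSO RNA libraries. These 3 libraries and 1 control H3K27ac library make up 4 of the 8 samples of the series, and all 54232 gene rows were ranked. The cells have a C57BL/6 background, and the labels give their cell type as female germline stem cells (FGSC), which are dividing germ cells that have been cultured from the ovary. The RNA samples are titled DMSO, the solvent in which a compound is dissolved, and the treated samples of the series, which were not used here, received the code-named compound 028 (C28); control and treated profiles were taken at 3 h. The H3K27ac sample is titled control group with no mention of DMSO. The labels give no age of the animals and no passage, and they do not say whether the 3 RNA libraries came from separate cultures or whether the cells are 1 clone, so the spread given below may be technical.

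The RNAs that set a cell apart fall into a few functional kinds: transcription factors that hold the lineage, surface receptors that read growth signals, and products of the specialised trade of the cell. Germ cells are known by RNA helicases and RNA-binding proteins such as Ddx4 and Dazl. White blood cells carry the phosphatase CD45, encoded by Ptprc, and actin regulators made in few other tissues. Mast cells, which are granule-bearing blood cells of tissues, depend on the factors Gata2 and Mitf and on the receptor Kit, and store proteases, heparin and amines. Gonadal somatic cells make steroids from cholesterol, beginning with the enzyme encoded by Cyp11a1.

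Reads assigned to genes numbered 19197376, 18871411 and 18613916 in DMSO replicates 1, 2 and 3, and 19940, 20182 and 20256 genes had at least 1 read. Values below are normalized counts, that is, reads divided by a library factor, so that 10 in each library stands for 31.7 reads over the 3 libraries. Where no library had a read, a count of 0 allows up to 3 of the 56682703 reads of the 3 libraries, for counting error only. Replicate 1 stood apart from the other two libraries. Across the 13221 genes with a mean of at least 10, the Pearson correlation on the log2(value + 1) scale was 0.992 between replicates 2 and 3, and 0.976 and 0.975 between replicate 1 and each of these; genes are not independent replicates. Between replicates 2 and 3, 2.05% of these genes were 2-fold or more apart, against 6.78% and 7.47% in the pairs with replicate 1. Because longer transcripts gather more reads and no transcript lengths were used, a rank here is a rank of reads and not of molecules. In such bulk samples fewer cells of a type and less RNA per cell cannot be told apart.

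The 6 marker genes all lay among the highest 437 genes. They were chosen with earlier results of these data known, so their ranks are a description and not a test. Gata2, a zinc finger transcription factor of blood stem and mast cells, had 26194, 24412 and 24610.1 normalized counts in replicates 1, 2 and 3 (mean 25072 ± 977, SD, n = 3) and ranked 40. Kit, the receptor for stem cell factor in blood, germ and pigment cells, had 24074, 20977 and 21088 (mean 22046 ± 1757) and ranked 56. Csf2rb, the beta chain shared by the receptors for interleukin-3, interleukin-5 and GM-CSF, had 16139, 17439 and 18004 (mean 17194 ± 956) and ranked 86. The highest library exceeded the lowest by 1.07-fold for Gata2, 1.15-fold for Kit and 1.12-fold for Csf2rb. Ptprc had 8157, 6568 and 7041 (mean 7255 ± 816) and ranked 391. Cyp11a1, whose enzyme cuts the side chain of cholesterol, had 5887, 7728 and 6943 (mean 6852 ± 924) and ranked 421. Cpa3, a carboxypeptidase of mast cell granules, had 5532, 8106 and 6514 (mean 6717 ± 1299) and ranked 437. Replicate 1 was the highest library for Gata2, Kit and Ptprc and the lowest for Csf2rb, Cyp11a1 and Cpa3. In the plot of abundance by rank these genes sit on the upper part of the curve, and the germ cell genes Ddx4 and Dazl at its lower end.

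**Figure D1:**
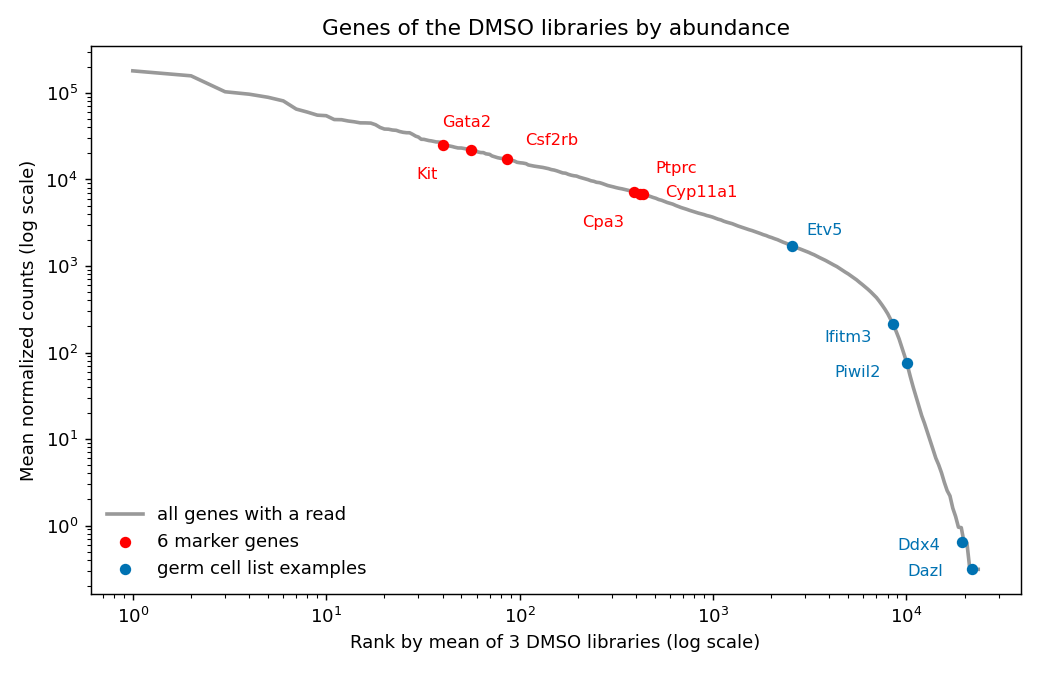
Mean normalized counts of the 3 DMSO libraries against the rank by that mean, both on log axes, with the curve running over all genes with a read. The 6 marker genes (red) rank between 40 and 437, whereas the germ cell list examples (blue) run from Etv5, with a mean of 1703, down to Dazl, with 1 read.

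The bases before the transcription start of 4 marker genes are shown because these genes differ in base composition and in the letters of blood factor motifs there. They are the 250 bases before the RefSeq start in GRCm38.p6, 5′ to 3′ on the strand of the gene. Capitals mark matches on either strand. The letters searched were AGATAA and the variant TGATAA for GATA factors, TGTGGT for RUNX factors, and GAGGAA for ETS factors. For the E-box they were CAGCTG and the variant CATCTG, and for the TATA box TATAAA. Kit lies on the plus strand at chr5:75574737-75574986, Cpa3 on the minus strand at chr3:20242182-20242431, Ptprc on the minus strand at chr1:138175306-138175555 and Cyp11a1 on the plus strand at chr9:57997774-57998023.
Kit: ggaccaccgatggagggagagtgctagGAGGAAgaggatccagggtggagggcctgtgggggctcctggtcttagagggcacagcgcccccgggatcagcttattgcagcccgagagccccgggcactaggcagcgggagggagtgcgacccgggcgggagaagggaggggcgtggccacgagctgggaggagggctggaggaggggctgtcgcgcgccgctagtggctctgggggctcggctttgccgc
Cpa3: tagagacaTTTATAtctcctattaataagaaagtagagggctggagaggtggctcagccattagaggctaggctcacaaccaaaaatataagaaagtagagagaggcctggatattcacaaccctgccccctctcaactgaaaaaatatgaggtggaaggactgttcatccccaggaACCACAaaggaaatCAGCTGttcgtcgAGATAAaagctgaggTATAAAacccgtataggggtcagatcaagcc
Ptprc: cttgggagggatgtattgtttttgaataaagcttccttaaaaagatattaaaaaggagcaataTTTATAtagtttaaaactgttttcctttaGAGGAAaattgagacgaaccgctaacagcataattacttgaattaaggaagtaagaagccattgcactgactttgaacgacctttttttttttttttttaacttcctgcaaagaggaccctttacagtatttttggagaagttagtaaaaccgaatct
Cyp11a1: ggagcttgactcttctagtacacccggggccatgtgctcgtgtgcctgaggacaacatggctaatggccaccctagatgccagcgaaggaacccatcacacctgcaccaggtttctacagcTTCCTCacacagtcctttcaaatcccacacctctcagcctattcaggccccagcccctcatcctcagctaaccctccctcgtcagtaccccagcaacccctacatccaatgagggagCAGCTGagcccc
In these windows G and C made up 70.8% of the bases at Kit, 44.4% at Cpa3, 31.6% at Ptprc and 57.6% at Cyp11a1. The Cpa3 window held 1 GATA match (AGATAA), 1 RUNX match, 1 E-box match and 2 TATA matches, the last of them close to the start. Kit held 1 ETS match, Ptprc 1 ETS and 1 TATA match, and Cyp11a1 1 ETS and 1 E-box match. The same stretch before Gata2, with 67.2% G and C, held none of these letters. For Csf2rb, the remaining marker gene, no window was at hand.

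The most abundant RNAs came from translation, protein folding and the mitochondrial genome. The highest 10 genes held 5.27% of all normalized counts, the highest 100 held 17.8% and the highest 1000 held 51.0%. Eef1a1, the elongation factor that brings aminoacyl-tRNA to the ribosome, was first with 187150, 177736 and 175443 normalized counts, or 1.01% of the total. Of the highest 30 genes, 10 belonged to a list of translation factors and chaperones: Eef1a1, Eef2, Eif5a and Pabpc1 of translation, Hsp90ab1, Hsp90aa1, Hspa8 and Hspd1 of protein folding, and the nucleolar proteins Ncl and Npm1. Another 8 were mitochondrial transcripts, led by mt-Co1 with 174391, 152781 and 146266, and 3 were ribosomal proteins, Rpl4, Rpl10 and Rpl7. The rest were the cytoskeletal actin Actb, the RNA-binding proteins Serbp1, Hnrnpa2b1 and Ybx1, the chromatin-associated Ptma, the iron store Fth1, the glycolytic enzymes Pkm and Ldha, and the ATP synthase subunit Atp5b. No lineage factor, receptor or granule product was among them, and Gata2 followed 10 places below. The libraries differed little in these genes: Pabpc1 had 40205, 39734 and 39837, whereas Hspa8, with 39609.8, 54188 and 54102, and Fth1, with 37504, 52635 and 45255, were lowest in replicate 1. The 89 ribosomal protein genes together held 5.70% of the total, and the 13 messages of the mitochondrial genome 3.26%, 2.97% and 2.78% in replicates 1, 2 and 3.

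Of 21063 protein-coding genes, 11054 (52.5%) had a mean of at least 10, and 6352 (30.2%) had 0 reads in all 3 libraries. These 2 shares are the background for the lists that follow, in which a member is counted as detected when its mean reaches 10. The median over all coding genes was 17.5 normalized counts.

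Genes made across white blood cells were detected throughout. All 22 members of the leukocyte list reached 10, with a median of 3738 normalized counts, and their sum was 102523, 93447 and 92019.7 in replicates 1, 2 and 3, with a mean of 95997 with and 92733 without replicate 1. Lcp1, an actin-bundling protein, was the highest with 17997, 16166 and 16558. Arhgdib, an inhibitor of small GTPases, had 9309, 10872 and 10223, and Coro1a, an actin regulator, had 9159.9, 7278 and 7018. Only Lsp1, with 4.67, 23.8 and 23.9, stayed under 100. Replicate 1 was highest for Lcp1 and Coro1a and lowest for Arhgdib and Lsp1.

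The list of mast cell genes divided sharply. Of its 26 members 16 were detected and 4 had 0 reads, beside 52.5% and 30.2% of all coding genes. Among those detected were the factors Gata2 and Mitf, the receptors Kit and Il1rl1, the Fc receptor gamma chain Fcer1g, and genes of granules: Cpa3, the secretion regulator Rab27b with 7309, 7269 and 7864, the tetraspanin Cd63, the heparin enzyme Ndst2 with 5428, 7511 and 7056, the granule proteoglycan Srgn, and the amine transporter Slc18a2. Tph1, which opens serotonin synthesis, had 1877, 4401 and 2975, with replicate 2 the highest. The remaining detected members, Hpgds, Hdc, Cma1 and Mcpt2, had means under 200. Hdc, which makes histamine, was at 1.87, 112 and 97.6, so replicate 1 held only 2 reads where the others held over 100 reads each. The alpha and beta chains that complete the high-affinity IgE receptor were at or near 0: Fcer1a had no read and Ms4a2 had 1. The tryptase Tpsb2 and the receptors Mrgprb1 and Mrgprb2 also had 0 reads, while the proteases Tpsab1, Mcpt1, Mcpt4 and Mcpt9 and the lipoxygenase Alox5 had means under 2. These proteases belong to families of similar genes, and the sources used here do not say how reads matching several copies were counted. The summed level of the list was 87029.6, 90874 and 88819, with a mean of 88908 with and 89846 without replicate 1; Gata2 and Kit make up most of it. Of 4 basophil genes, Cd200r3 had 68.2, 902 and 853, the protease Mcpt8 56.1, 112 and 78.4 and Itga2 7.48, 18.1 and 14.3, all lowest in replicate 1, and Prss34 had 0 reads.

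**Figure D2:**
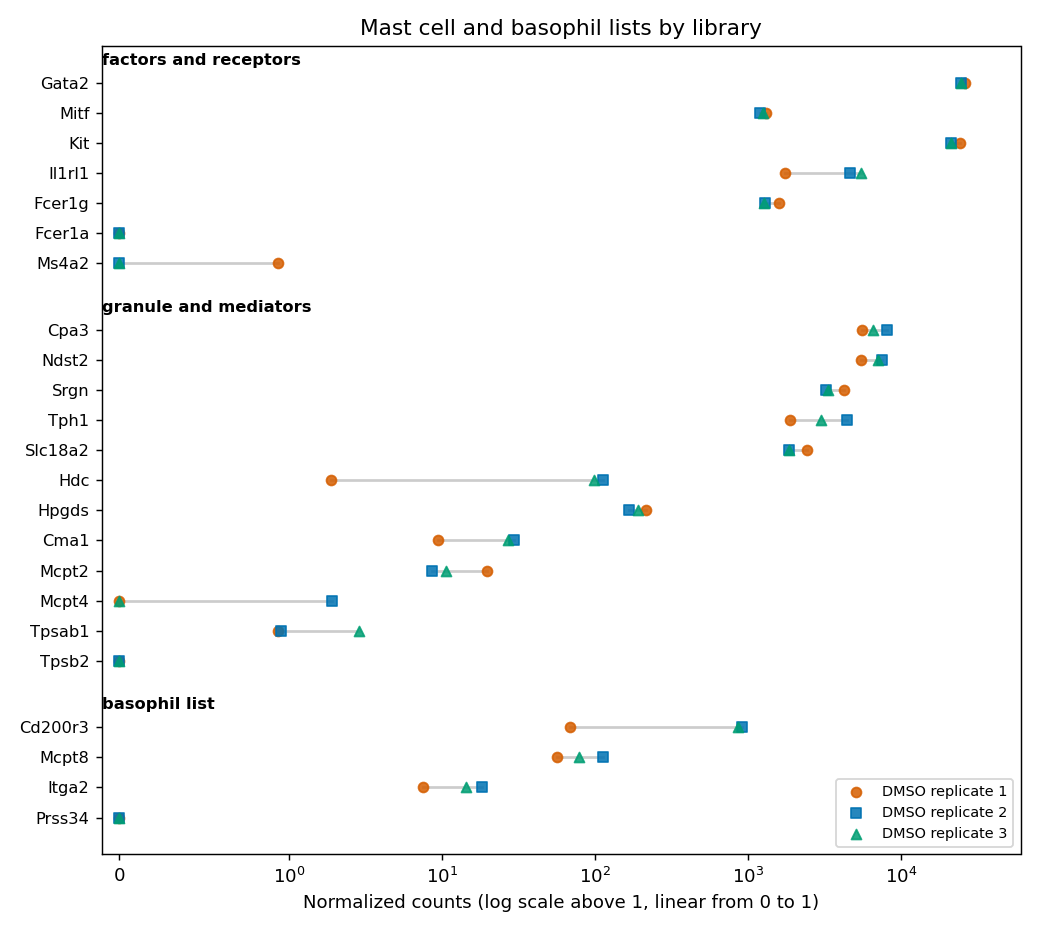
Normalized counts of mast cell and basophil list members in each DMSO library (log axis above 1, linear from 0 to 1; 1 symbol per library, grey line from lowest to highest). Gata2 and Kit are the highest in every library, the Fc receptor genes Fcer1a and Ms4a2 at 0 or at 1 read, and Hdc and Cd200r3 far lower in replicate 1 than in the other two libraries.

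Most genes that define other blood lineages had few or no reads. The shares of all coding genes for comparison are 52.5% detected and 30.2% with 0 reads. Of 9 eosinophil genes none was detected and 6 had 0 reads, among them Ccr3, Prg2 and Prg3. Of 16 neutrophil genes 3 were detected: the chemokine receptor Cxcr2 with 2061, 1570.1 and 1628, the protease Ctsg with 237, 1225 and 1144 and the collagenase Mmp8 with 16.8, 275 and 219. Ctsg and Mmp8 were several times lower in replicate 1, and Elane, Ltf and Ngp had 0 reads. Of 19 monocyte and macrophage genes 6 were detected, led by Adgre1, the surface protein F4/80, with 766, 1833 and 1632. Cd68, a lysosomal protein, had 165, 654 and 469.7, and Tyrobp, an adaptor of activating receptors, 41.1, 145 and 139.7. Replicate 1 was lowest in all 3, and the growth factor receptor Csf1r stayed under 4 in each library. Of 13 genes of dendritic cells and class II antigen presentation 3 were detected, Zbtb46, Cd74 and Batf3, and Clec9a, Cd209a and Siglech had 0 reads.

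The lymphoid and red cell lists also had few detected members, against 52.5% of all coding genes. Of 14 B cell genes 2 were detected, Dntt and Ebf1, both with means under 20, and Ms4a1 and Cd79b had 0 reads. Of 15 T cell genes 5 were detected, and the highest was Lat, an adaptor also used by Fc receptors, with 2386, 3271 and 2708; Cd3e had 2 reads and Cd3g, Cd8a and Cd5 had 0. Of 13 genes of NK and innate lymphoid cells 4 were detected. Gzmb, a cytotoxic protease also made by mast cells, had 797, 89.4 and 67.0 and was highest in replicate 1. Of 15 red cell genes 4 were detected. Tfrc, the transferrin receptor of dividing cells, had 19185, 15549 and 15003, Epor 446, 508 and 419.9 and Gata1 99.1, 166 and 173, whereas 4 globin genes had 1 read in all. Of 12 megakaryocyte genes 5 were detected and 4 had 0 reads, Gp6 and Gp1bb among them, beside 52.5% and 30.2% of all coding genes. The integrins Itga2b, with 3797, 3046 and 2853, and Itgb3, with 2684, 1469 and 1676, led those detected. Blood progenitor genes were detected in 14 of 16 cases, led by Myb with 3649, 3231 and 3376, Lyl1 with 3280.5, 2916 and 2761, Runx1 with 1516, 2720.5 and 2456 and Tal1 with 1537, 1619.5 and 1476. Hoxa9 had 0 reads.

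The label of the cells was set against the germ cell list. Of its 27 members 8 were detected and 10 had 0 reads, among them Pou5f1, Dppa3 and Nanos2, against 52.5% and 30.2% of all coding genes. The 8 were Etv5, Tex14, Ifitm3, Piwil2, Uchl1, Zbtb16, Dnd1 and Ret. Etv5, an ETS factor also found in many somatic cells, had 1409.8, 1856 and 1841, which held most of the summed level of the list, 2235, 2874 and 2789. Tex14, a protein of germ cell bridges, had 504, 525 and 491. Ifitm3, a membrane protein of germ and immune cells, had 80.4, 268 and 285, lowest in replicate 1, and Piwil2, of the piRNA pathway, had 75.7, 82.8 and 69.8. The defining germ cell genes had almost no reads: Ddx4 had 2 reads, both in replicate 3, and Dazl had 1, in replicate 2. Of the receptor subunits for GDNF, a growth factor of germline stem cells, Gfra1 had 1.87, 14.3 and 3.83 and Ret 18.7, 7.61 and 3.83. Because these values go against the labelled cell type, the cells are called DMSO-treated or control cells here.

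Most other lists that an ovary or a culture could contribute had few detected members, and the fibroblast and feeder list was the exception. Over all coding genes 52.5% were detected and 30.2% had 0 reads. Of 20 oocyte and meiosis genes 2 were detected, the meiotic proteins Sycp1, with 67.3, 63.8 and 66.0, and Rec8, with 34.6, 29.5 and 30.6, and 10 had 0 reads, Zp3, Zp2 and Figla among them. Of 14 pluripotency genes 3 were detected, Tbx3, Klf4 and Klf5, all with means under 50, and 10 had 0 reads, including Nanog, Pou5f1 and Sox2. Of 19 ovarian somatic genes 4 were detected, Star, Inhba, Fst and Amh, none with a mean of 100, and Foxl2, Fshr and Cyp19a1 were among 8 with 0 reads. Fibroblast and feeder genes were detected in 13 of 19 cases, with a list median of 60.5 normalized counts against 17.5 over all coding genes. Their sum was lowest in replicate 1, with 2577, 4314 and 6092 in replicates 1, 2 and 3, and a mean of 4327 with and 5203 without replicate 1. Fn1, fibronectin, had 869, 1636 and 2296 and Dcn, decorin, 829, 1270.3 and 1811, both lowest in replicate 1; Tcf21 had 0 reads. Of 13 epithelial genes only Msln was detected, with 151, 456 and 595, and Krt14, Krt18 and Krt8 had 0 reads. Endothelial genes were detected in 3 of 11 cases, melanocyte genes in 2 of 8 (Mitf and Pmel) and neural genes in 2 of 12, while Kdr, Tyr and Snap25 had 0 reads. The plot of cell type lists shows the leukocyte list as the only one with every member above the line of 10 and the eosinophil list as the only one with none.

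**Figure D3:**
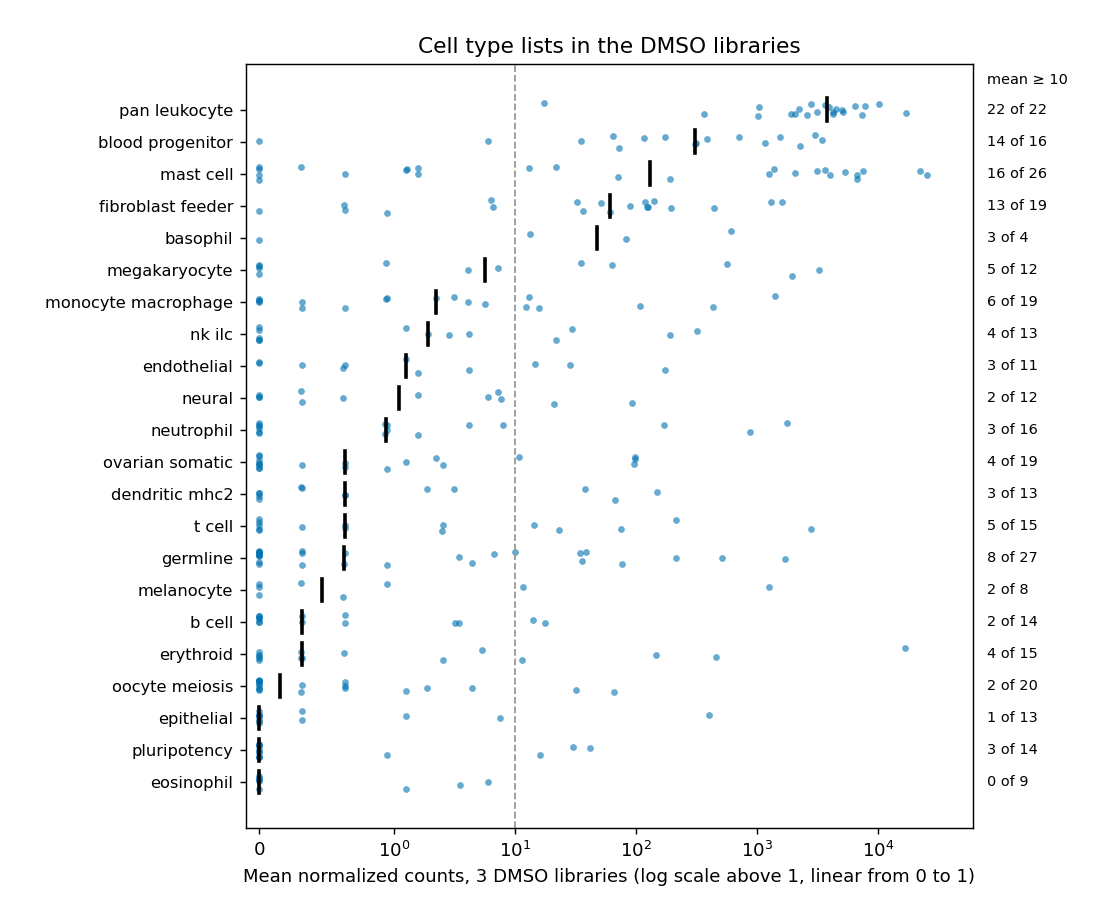
Mean normalized counts of each member (points) of 22 cell type lists, with list medians as black bars; the axis is logarithmic above 1 and linear from 0 to 1, the dashed line marks 10, and the numbers at the right give the members at or above it. The leukocyte list has a median of 3738 and all 22 members above the line, and the germline list a median of 0.629 and 8 of 27.

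Transcription factors of blood formation were broadly present, with gaps. Of 48 factors 39 were detected, and Gata2 was the highest. Ikzf1, the lymphoid and myeloid factor Ikaros, followed with 6639.5, 6465 and 6106, then Runx3 with 3049, 3651 and 3741 and Myb. Tal1 and its known partners in a complex were all detected: Ldb1 had 3073, 3453 and 3337, Tcf3 2553, 2545 and 2574 and Lmo2 319, 325 and 277. Spi1, the ETS factor PU.1, had 1158, 1217 and 1097 and Mitf 1297, 1192 and 1247. Gata3 stayed at 28.0, 28.5 and 31.6. Of the C/EBP factors, Cebpb had 453, 622 and 548, Cebpa 5.61, 7.61 and 12.4 and Cebpe 0.935, 1.90 and 1.91. Irf8 and Bcl11a, which act in monocyte, dendritic and B cell development, had 0 reads. Among 39 Hox genes, which record position and stem cell state, Hoxc6 alone had a mean of at least 10, with 15.0, 11.4 and 8.61, and 22 had 0 reads.

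Receptors for blood cytokines were led by Kit, Csf2rb, Il18rap and Csf2rb2. Of 42 receptor genes 32 were detected. Csf2rb2, the mouse beta chain specific to interleukin-3, had 8178, 8831 and 8564; it is a close copy of Csf2rb, and reads could be divided between them. The alpha chains that pair with these beta chains were far down: Il3ra had 138, 71.4 and 67.0, Csf2ra 23.4, 77.1 and 60.3 and Il5ra 8.41, 6.66 and 2.87. Replicate 1 was highest for Il3ra and lowest for Csf2ra. Il18rap, a chain of the interleukin-18 receptor, had 7665, 9538 and 9598, and its partner Il18r1 42.1, 106 and 105. Il4ra had 8612, 7249 and 7204, and the interleukin-33 receptor Il1rl1 1744, 4632 and 5467, the latter lowest in replicate 1. Il2ra, with 295, 1561 and 1243, was lowest in replicate 1, whereas Il9r, with 1265, 562 and 493, and the common gamma chain Il2rg, with 526, 196 and 183, were highest there. Flt3 and Csf3r, receptors of progenitors and neutrophils, had 2 and 3 reads, and Il27ra had 0.

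Cytokine and growth factor ligands were described in the same way. Of 34 ligand genes 22 were detected, and Tgfb1, with 7569, 7705 and 7620.2, and Osm, oncostatin M, with 1945, 3187 and 3091, were the highest, followed by Vegfa and Csf1. Il13 had 90.7, 867 and 610.3 and Il4 165, 395 and 291, so both type 2 cytokines were lowest in replicate 1. Il33 had 15.0, 191 and 381, Il6 470.2, 602 and 642 and Tnf 419, 288 and 296. Kitl, the ligand of Kit, had 60.8, 165 and 269, lowest in replicate 1, while Csf2, which encodes GM-CSF, had 13.1, 12.4 and 11.5. Il3, Il9 and Ifng had 0 reads, and Il5 had 2. The libraries thus held abundant Csf2rb RNA and no Il3 read. Of 18 receptors for factors used in germline stem cell culture 14 were detected, led by Notch2 with 1946, 2142 and 2062, Bmpr1a with 1627, 2220 and 2167, Bmpr2 and Il6st, and Fgfr1 had 158, 97.1 and 175. Egfr, Lifr, Gfra1 and Fgfr2 had means under 10.

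**Figure D4:**
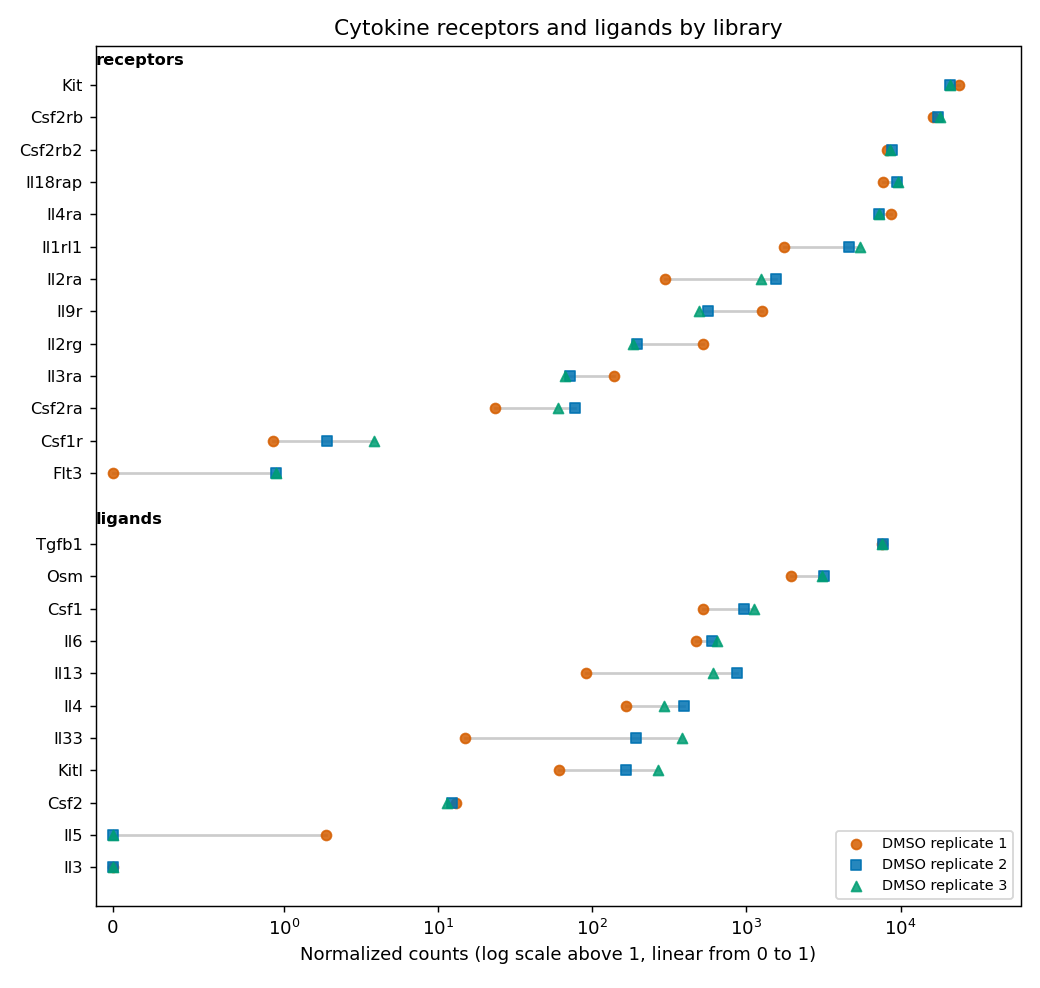
Normalized counts of cytokine receptors and ligands in each DMSO library (log axis above 1, linear from 0 to 1; 1 symbol per library, grey line from lowest to highest). Kit is the highest receptor in every library, the alpha chains Il3ra and Csf2ra lie far below the beta chains, and Il3 is at 0 reads.

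Genes that carry signals inward from these receptors were nearly all detected. Of 21 JAK and STAT pathway genes 20 were detected: the highest were Socs2, a feedback inhibitor, with 2993, 5339 and 5678, the survival factors Mcl1 with 4445, 4677 and 4584 and Bcl2l1 with 4079.8, 3756 and 3656, and the kinase Jak1 with 3440.3, 3752 and 3789. Stat5a had 3245, 2943 and 2935, Stat5b had 2962, 2574 and 2452, and Stat4 had a mean under 10. Of 33 genes of Kit and Fc receptor signalling 30 were detected. Pik3cd, the leukocyte PI3-kinase subunit, had 15171, 21669 and 21676 and the adaptor Lcp2 11478, 14267 and 14367, both lowest in replicate 1, while Nras had 6196, 5561 and 5522 and Grb2 5797, 5083 and 4839. Of the kinases next to the Fc receptor, Lyn had 1599, 1508 and 1459.8 and Syk 862, 1513 and 1408. Fgr, of the Src family, had a mean under 2, and the exchange factor Rasgrp1 had 0 reads, whereas its relative Rasgrp4 had 1164, 575 and 606.

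Other surface genes included several in which replicate 1 differed. Of 33 G protein-coupled receptors 20 were detected, led by the prostanoid receptors Ptgir, with 4609, 3624 and 3675, and Ptger3, with 1649, 2278 and 2143, then P2ry14 and Cnr2. Adora3, an adenosine receptor of mast cells, had 99.1, 774 and 669, lowest in replicate 1, and Hrh1, Ptger2 and Hrh4 had 0 reads. Of 26 integrin chains 18 were detected, led by Itgb1 with 5003, 5349 and 5404, Itga2b, Itgal and Itgb7. Itgb7, the partner of Itga4, had 3807, 1494 and 1581, more than 2-fold higher in replicate 1, and Itgam and Itgax had means under 2. All 7 genes of class I antigen presentation were detected and each was highest in replicate 1: B2m had 7012, 4510.3 and 4859 and H2-D1 7889, 3781 and 4113. H2-D1 and H2-K1 are alike in sequence, which makes their division uncertain.

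Central metabolism was expressed almost in full. Of 23 genes of glycolysis and lactate export 22 were detected, with Pkm at 31920.5, 38199.9 and 37333, Ldha at 31602, 37491 and 34903, Eno1 at 22547, 22785 and 23392 and Aldoa at 16494, 16666 and 16791. Pkm and Ldha were lowest in replicate 1. Ldhb, the other lactate dehydrogenase subunit, had 12.2, 12.4 and 21.0 and the hexokinase Hk3 had 1 read, whereas Hk1 had 6081, 6627 and 6823 and Hk2 2261, 2276 and 2191. The glucose transporter Slc2a3 had 10560.4, 11622 and 9702 and Slc2a1 1127, 1722 and 1817. All 22 genes of the citric acid cycle had means above 1000, led by Mdh2 with 9564, 9979.9 and 9459.7 and Cs with 9095, 9221 and 9407. Of 24 nuclear genes of oxidative phosphorylation 23 were detected, led by Atp5b and Atp5a1, and only the tissue-restricted forms Cox7a1, Cox6a2 and Cox4i2 lay under 100. All 20 genes of nucleotide and polyamine synthesis were detected, led by the purine enzymes Paics, with 11475, 12122 and 11533, and Atic, with 9745, 10498 and 10142, then the polyamine enzyme Odc1 and the pyrimidine enzyme Cad. All 21 sterol and fatty acid genes were detected, and the desaturase Scd2 had 23896, 18547 and 18961 where its relative Scd1 had 278, 289 and 282.

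The steroid pathway was detected at its entry, and most later enzymes had few or no reads. Of 19 genes 7 were detected and 7 had 0 reads, beside 52.5% and 30.2% of all coding genes. Besides Cyp11a1 the detected ones were its electron donors Fdx1, with 635, 941 and 975, and Fdxr, with 609.5, 804 and 748, the cholesterol carriers Tspo, with 988, 823 and 799, Stard3 and Star, and Srd5a1. Star, which delivers cholesterol in gonads and adrenals, had 114, 88.5 and 90.9. Of the enzymes after side chain cleavage, Hsd3b1, Hsd3b2 and Cyp19a1 had 0 reads, Hsd3b6 had 5 and Cyp17a1 had 1. Nr5a1 and Nr5a2, nuclear receptors that drive steroid genes in gonads, also had 0 reads.

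Lipid mediator and amine genes were present in part. Of 13 eicosanoid genes 9 were detected: Pla2g4a, which frees arachidonic acid, had 2405, 1862 and 2278, the cyclooxygenase Ptgs2 had 1166, 1631 and 2689, Lta4h 1449, 1379.8 and 1299, and Alox5ap 869, 736 and 701. Alox5, which Alox5ap serves, had 5 reads and Alox12 had 0. Of 15 genes of granule amines and heparin 13 were detected, led by Ndst2, the sulfotransferase Hs6st1 with 6457, 6286 and 6395, Srgn and Tph1. Ddc, the decarboxylase after Tph1, had 28.0, 2.85 and 3.83, highest in replicate 1, and Maob had 0 reads.

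Genes of the dividing cell were prominent. Of 29 proliferation genes 27 were detected, with Top2a at 15516, 14503 and 15757, Mki67 at 12091, 10205 and 10730, Mcm3 at 8921, 8833 and 8908 and Mcm6 at 7956, 8613 and 8437. Myc had 8954, 7767 and 7844, while Mycn had 0 reads and Mycl a mean under 10. Of the D cyclins, Ccnd2 had 3683, 2829 and 2837, Ccnd1 2098, 3059 and 3195 and Ccnd3 2416, 3002 and 2789, with replicate 1 highest for Ccnd2 and lowest for the others. Of 12 genes that restrain growth 10 were detected, led by Trp53 with 2969, 2663 and 2829.6, Cdkn1a with 2332, 2867 and 2514 and Mdm2. Cdkn2a, the INK4a and ARF locus, had 1.87, 7.61 and 19.1 and Cdkn1c had 0, 2.85 and 2.87. The telomerase gene Tert had 88.8, 108 and 132.

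The sex chromosomes were examined because the cells are labelled female. All 7 Y-linked list genes, such as Ddx3y, Uty and Kdm5d, had 0 reads. Of 335 rows on the Y chromosome, 3 had reads, and the highest, the pseudogene Mid1-ps1, had 58.0, 65.7 and 56.4. How reads matching several copies were counted is not stated, so these reads need not come from the Y chromosome. The X-linked partners were abundant, with Ddx3x at 12469, 12275 and 12979 and Eif2s3x at 3851, 3855 and 4042. Xist, the RNA that coats the inactive X chromosome in female somatic cells, and its antisense partner Tsix both had 0 reads. On the X chromosome 331 of 913 coding genes (36.3%) were detected, against 53.9% on the autosomes, and the detected X genes had a median of 571 normalized counts, within the range of 505 to 902 over single autosomes.

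Variation between the libraries was mostly small, and where it was large, replicate 1 was mostly the lowest or the highest. Among 4317 genes with a mean of at least 1000, the median ratio of the highest to the lowest library was 1.12, and 57 genes (1.32%) exceeded 2. In 56 of these 57, replicate 1 was at an end, the lowest in 36 and the highest in 20. For any gene, 2 of the 3 libraries are at an end. The count therefore includes genes in which another library stood apart, such as CT010467.1 with 6222, 8371 and 24890. The largest ratio belonged to Serpinb2, an inhibitor of plasminogen activators, with 185, 846 and 2221. Neurl3, a ubiquitin ligase, was highest in replicate 1, with 2989.7, 482 and 449.6. The other 8 of the 10 widest were all lowest in replicate 1. They included the matrix proteins Tnc, with 577, 2456 and 3769, and Spp1, with 1603, 4904 and 8603, the protease inhibitor Timp1, with 662, 1954 and 2893, and the secreted protein Angptl2, with 306, 1797 and 1727. The remaining ones were the surface genes Clec10a, Il2ra, Cd200r4 and Aqp9, with ratios between 4.17 and 6.46. The summed fibroblast list was likewise lowest in replicate 1 and highest in replicate 3, as were Serpinb2, Tnc, Spp1 and Timp1, and its part in these differences was not tested.

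The letters marked in the promoters above were counted in the 300-base RefSeq windows, 250 before to 50 after the start, of 20601 genes that matched the table. A window was at hand for 396 of the 500 highest genes, 9366 of the 13221 genes with a mean of at least 10 and 7492 of the 30694 genes with 0 reads, and the shares are of these windows. GATA letters were in 8.59% of the windows of the 500 highest genes, 9.73% of genes with a mean of at least 10, 26.3% of genes with 0 reads and 16.9% of all. TATAAA was in 9.60%, 6.56%, 21.6% and 13.2% of the same sets, and the RUNX letters TGTGGT in 12.4%, 12.3%, 19.6% and 15.8%. For the ETS letters GAGGAA the shares were 25%, 26.5%, 29.0% and 28.0%, and for the E-box letters 20.5%, 23.5%, 33.8% and 29.0%. All 5 shares were lower in detected genes than in genes with 0 reads, and no difference was tested. The sets also differed in base composition, with a median of 62.0% G and C in the 500 highest genes, 61.0% in detected genes and 47.3% in genes with 0 reads, and the part of composition in these shares was not tested. A match is a run of letters and not a bound site.

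H3K27ac, the acetylated histone H3 found at active promoters and enhancers, was measured in 1 control library, so its values have no replicate. The deposited list holds 23585 peaks in mm9 coordinates that cover 23.7 Mb. Peak widths ran from 318 to 3928 bases, with a median of 931 and quartiles of 585 and 1322, and 980 peaks (4.16%) were wider than 2000 bases. The fold enrichment given by the authors ran from 1.46 to 30.4, with a median of 5.55, and the median −log10 q was 18.7. The 3 widest peaks lay at chr1:155260418-155264345, chr12:106256981-106260837 and chr16:10781308-10785038, with fold enrichments of 4.25, 2.49 and 2.53. The 3 with the highest fold enrichment were narrow, at chr9:35112807-35113178, chrX:31669919-31670322 and chr6:54976158-54976680, with values of 30.4, 29.1 and 28.5 over widths of 372, 404 and 523 bases. Their −log10 q values were 12106.6, 1185.9 and 2116.3, far above the median. Peaks were not screened here for repeated sequence, so these need not be the most acetylated sites. No mm9 gene annotation was used here, so no peak was assigned to a gene. By chromosome, the X held 543 peaks (2.30%) beside its 331 detected genes, and chromosome 11, with 951 detected genes, held 1864. The Y chromosome held 1 peak, and 2 more lay on unplaced Y sequence, against 0 coding genes on the Y with a mean of at least 10. The list also held 1 peak on the mitochondrial genome, with a fold enrichment of 2.58. In all, 64 peaks lay on unplaced or random sequence, those of the Y among them.

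**Figure D5:**
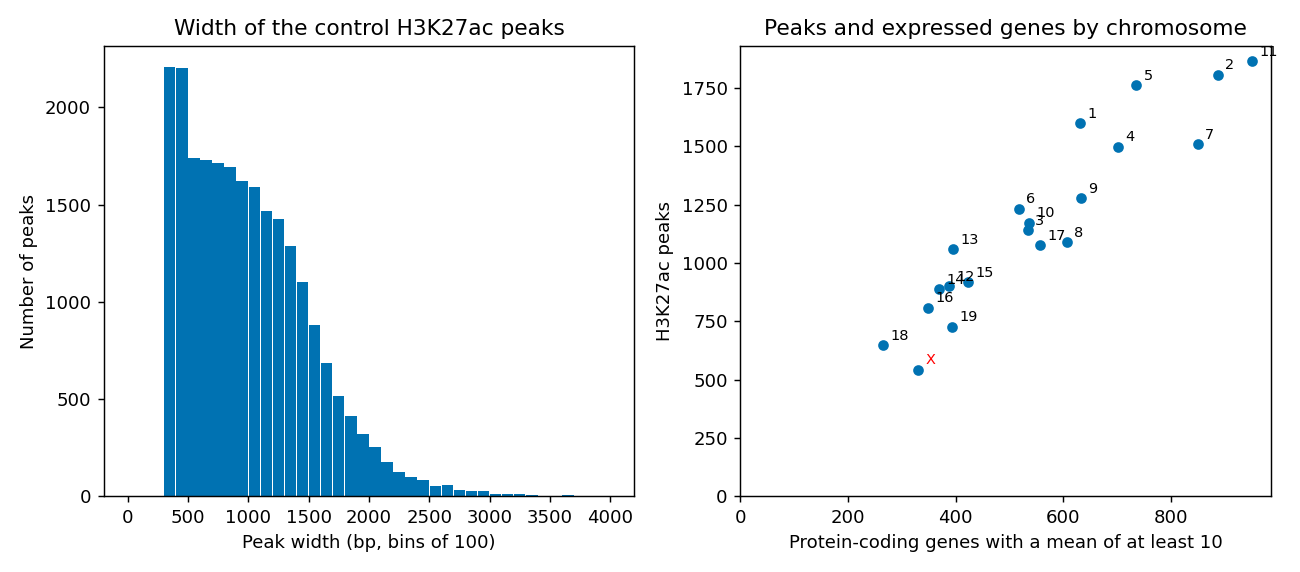
Left, number of control H3K27ac peaks per 100-base bin of width; right, peaks against protein-coding genes with a mean of at least 10 for chromosomes 1 to 19 and X, 1 point per chromosome. Widths have a median of 931 bases with a tail past 2000, and the X chromosome, with 543 peaks, has fewer than any autosome.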

How the data were processed

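RNA was measured in 3 DMSO libraries and H3K27ac in 1 control library, with groups taken from the titles. The labels' protocols describe mRNA isolation, paired reads and 2 library kits. Of these 1 marks strand, but neither the kit used nor strand-aware counting is stated, so antisense overlaps cannot be resolved. The submitters' processing notes name mm9, Bowtie2 and Cufflinks 2.2.1 without roles. The counter, the peak caller and their settings are not named in these sources. Deposited expression values are a signal made by the authors, read counts divided by 1 size factor per library: 100% are whole multiples, within 0.01 reads, of the value of 1 read. The deposited peak list carries the authors' fold enrichment, −log10 q and a score that is 10 times −log10 q rounded down.

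Genes were ranked by the mean of the 3 DMSO columns (pandas 2.3.3 in Python 3.11.15), with a minimum mean of 10 for detection. Only the recovery of reads from normalized values was checked on simulated data. Names came from the table, or for 29950 rows from a table of Ensembl identifiers, and 95 rows had none. With 1 group there was no test. The members and the 50 lists were chosen with earlier results of these data known. Named were the markers, the 30 highest genes, the 4 highest and up to 3 unread members of each list, the 10 with the largest ratio between libraries, and 6 peaks. Other list members were added for their role after their values were seen. Levels per transcript length were not computed, since no transcript lengths were used here. Promoters are RefSeq windows of GRCm38.p6. A few list members are not reported here by name.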

Additional observations from a re-analysis of the deposited data

How the results depend on the processing

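Marker levels, list counts and medians, the number of genes with a mean of at least 10 and the order and share of the highest genes were recomputed without each DMSO library, from reads scaled to the same total and from the median of the 3 libraries. The list counts and the number of genes were also recomputed with other minimum levels. Genes with 0 reads were recounted only as those with fewer than 10 reads in total, promoter shares only over the 200 highest genes, and peaks only with other thresholds or joined within 1 kb. Of 612 alternative values, 572 stayed within the spread between libraries or, for counts, within 1.5 times, and 40 moved. With a minimum mean of 100, the counts of 20 of the 50 lists moved, so the fall was not particular to a few lists. The germline list then had 3 detected members, and the oocyte and the ovarian somatic list had 0 each. The fibroblast list had 8 and the cytokine ligand list 13. The share of all coding genes at this minimum was not computed. Restricting the H3K27ac list to a fold enrichment of at least 5 left 13767 peaks. Outside the minimum of 100, 2 of 250 list counts moved: without replicate 1 the Hox list had 3 detected members, and without replicate 3 the B cell list had 1. Of 250 list medians 17 moved, many of them in lists with a median near 0. The leukocyte median also moved, from 3738 to 3425 without replicate 1 and to 3499 with the median of the 3 libraries. Medians of the lists for growth restraint, cytoskeleton, cytokine receptors and translation moved in some settings too. No paired analysis was possible because only 1 group was described and no test was run. The planned levels per coding length and naming of genes by them were not run, since no transcript lengths were used. A depth of 18613916 to 19197376 reads leaves genes with a mean under 10 poorly measured.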

Other observations

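Messages of the mitochondrial genome were uneven in all 3 DMSO libraries. mt-Co1, a subunit of cytochrome oxidase, had 174391, 152781 and 146266 normalized counts in replicates 1, 2 and 3, whereas mt-Co2, of the same enzyme, had 933, 776 and 749 and mt-Co3 528, 424 and 521. Of the ATP synthase, mt-Atp6 had 1032, 1000.1 and 503 and mt-Atp8 10.3, 16.2 and 23.0. mt-Nd6, which is encoded on the opposite strand from the other messages, had 37274, 33777 and 34225, close to mt-Nd4 with 32065, 32951 and 27671. The ribosomal RNA mt-Rnr2 had 32516, 45145 and 36667. Gapdh, a glycolytic enzyme with many near-identical pseudogenes, had 882, 1645 and 1714 where other enzymes of the pathway such as Tpi1 had 10196, 11945 and 10911. The sources used here do not say how reads matching several copies or overlapping genes were counted, and these values are therefore uncertain.

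Sensors of innate immunity were detected at about the share of all coding genes. Of 22 genes 12 were detected, against 52.5% of all coding genes, with a list median of 19.2 normalized counts against 17.5. They were led by the adaptor Myd88 with 761, 774 and 708, the RNA sensor Ddx58 with 703, 366 and 476, Ticam1 and Nlrp3. Tlr4, the receptor for endotoxin, had 12.2, 24.7 and 43.0 and Tlr2 had 4.67, 0.952 and 1.91. Tlr11 had 0 reads.

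Structural genes of the cell were all detected, as were stores of iron and ubiquitin. Each of 17 cytoskeletal genes had a mean above 1000, led by Actb with 61268, 58964 and 59927, Tubb5 with 28284, 29920.5 and 29289, the intermediate filament Vim with 24179.7, 28712 and 27891 and Cfl1 with 23730, 25916 and 25128. Of 7 ferritin and ubiquitin genes, the ferritin chain Fth1 had 37504, 52635 and 45255 and Ftl1 15089.9, 19040.5 and 16692, both lowest in replicate 1. Among the highest 150 genes were 4 transcripts with only clone or predicted names, chosen after their values were seen. Gm26917 had 21860.2, 24440.5 and 27466, highest in replicate 3, and Gm13394 had 22316, 24724 and 23929.9, highest in replicate 2. Gm8730 had 23251, 22970.4 and 21504, highest in replicate 1. CT010467.1 had 6222, 8371 and 24890.3, highest in replicate 3.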
